A study of Mus musculus with 6 samples.

Results

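The genes of MHC class II presentation were examined in follicular B cells that lacked myosin IIa and in follicular B cells that were haploinsufficient for it. The genes are a list chosen by name and function, with no threshold on their values: the classical chains H2-Aa, H2-Ab1 and H2-Eb1, the invariant chain Cd74, the H2-M chains H2-DMa, H2-DMb1 and H2-DMb2, the H2-O chains H2-Oa and H2-Ob, and the transactivator Ciita. All 10 were found among the 20460 gene names, in 13 of 25017 entries. RNA was sequenced from B220+AA4.1-CD23+CD21lo cells sorted from C57BL/6 mice, 3 that were CD23Cre+Myh9wt/fl and 3 that were CD23Cre+Myh9fl/fl. Every mouse carried the Cre transgene, driven by the regulatory sequence of Fcer2a, the gene of CD23, and at least 1 floxed Myh9 allele, so the comparison group was haploinsufficient rather than wild-type. Young adult mice of both sexes were used for analyses of freshly isolated cells, per the methods, and the age and sex of each sequenced mouse were not given in the sources used here. Each genotype was represented by a single FPKM value per entry, a fragment count scaled to transcript length and library size, pooled by the authors over the 3 samples. There was therefore no spread between samples, no test was possible, and every difference given here is a description of these pooled values. The sequencing depth was unknown.

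MHC class II molecules carry peptides of endocytosed proteins to the cell surface, where CD4 T cells read them, and B cells use them to present antigen taken up through the B cell receptor. The alpha and beta chains assemble in the endoplasmic reticulum with the invariant chain, which blocks the groove and directs the complex to endosomes. There the invariant chain is cut down to a short peptide, H2-M exchanges that peptide for antigenic ones, and H2-O restrains H2-M. Transcription of these genes is controlled by Ciita, a coactivator that does not bind DNA itself but is recruited by factors sitting on a shared promoter module of X and Y boxes.

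The promoter sequences are shown because the listed genes other than Ciita are read together through that module. RefSeq windows on GRCm38.p6, from 250 bases before to 50 bases after a gene's start, were matched for 7 of the 10 genes in 8 windows, H2-DMa having 2 of them. H2-Ab1, Cd74 and Ciita were not matched. The Y box core CCAAT or its reverse ATTGG, on either strand, was found in 7 of the 8 windows, missing from 1 of those of H2-DMa, and in 37.4% of all 32851 windows. In H2-DMa the match began 198 bases before the start, whereas in the other genes no match began more than 90 bases before it. The longer TGATTGG or its reverse CCAATCA, which contains that core and was chosen after the windows had been read, was found in 6 of the 8 windows, those of H2-DMa being the others, and in 7.82% of all windows. For the X box core, only the exact spellings CCTAGCAAC and CCTAGTAAC with their reverses were searched. They were found in 2 of the 8 windows, those of H2-Ob and H2-DMb1, and in 0.962% of all windows. A window without them may still hold an X box of another spelling, which was not searched. The stretches around TGATTGG follow, read 5′ to 3′ in the direction of the gene, with TGATTGG and the searched X box spellings in capitals.
H2-Oa, chr17:34092274-34092355, plus strand: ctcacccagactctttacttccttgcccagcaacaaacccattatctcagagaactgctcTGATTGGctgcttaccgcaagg
H2-DMb2, chr17:34145097-34145178, plus strand: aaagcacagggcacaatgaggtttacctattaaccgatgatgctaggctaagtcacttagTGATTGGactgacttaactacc
H2-DMb1, chr17:34153068-34153149, plus strand: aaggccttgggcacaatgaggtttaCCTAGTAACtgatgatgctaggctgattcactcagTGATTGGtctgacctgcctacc
H2-Ob, chr17:34238786-34238867, plus strand: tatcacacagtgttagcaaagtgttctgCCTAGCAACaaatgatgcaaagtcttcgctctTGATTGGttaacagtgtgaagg
H2-Aa, chr17:34287852-34287933, minus strand: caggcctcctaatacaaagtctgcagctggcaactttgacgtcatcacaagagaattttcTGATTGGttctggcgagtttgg
H2-Eb1, chr17:34305746-34305827, plus strand: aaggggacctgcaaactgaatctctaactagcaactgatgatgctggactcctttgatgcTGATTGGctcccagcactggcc

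In these windows TGATTGG began between 45 bases before the start, in H2-Oa, and 92 bases before it, in H2-DMb2. The stretches of H2-DMb1 and H2-DMb2 were the most alike, with 69 of 82 aligned bases identical (84.1%), and the other 14 pairs were 40.7% to 60.7% identical. All stretches were cut around TGATTGG, so every pair shares those letters. Over their whole windows, H2-DMb1 and H2-DMb2 were identical at 210 of 342 alignment positions (61.4%). A match to these letters is not a measurement of binding.

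The targeted gene was examined first. Myh9, the heavy chain of myosin IIa, was at 50.6 FPKM in haploinsufficient and 21.1 FPKM in myosin IIa-deficient cells, a log2 ratio of -1.22, with 41.7% of the level left. This value covers the whole gene, whereas a single exon is floxed, so it does not measure the intact message. The paper checked the deletion in follicular B cells by mRNA of the floxed exon and by protein. All log2 ratios in the text are fl/fl over wt/fl, with 1 FPKM added to each value.

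In myosin IIa-deficient cells the RNA levels of the class II presentation genes were close to those in haploinsufficient cells. None of the 10 differed by 1.5-fold in either direction, where 2.32% of the 9880 genes whose mean reached 1 FPKM did. Their log2 ratios ran from -0.18 for H2-DMb1 to 0.24 for H2-Ab1, with a median of 0.10. Over all genes the median was 0.0026, and the 5th and 95th percentiles were -0.34 and 0.31. The value in fl/fl cells was the higher one for 8 of the 10 genes, against 50.5% of all genes. H2-DMb1 and Cd74 were the 2 with the lower value. Among the 618 genes whose mean reached 100 FPKM, which include every member but Ciita, 58.1% were higher in fl/fl cells, the median was 0.03, and the 5th and 95th percentiles were -0.23 and 0.25. All 9 of those members lay between these percentiles, and 7 of the 9 were higher in fl/fl cells. Summed over the 10 genes, the level was 18700 FPKM in haploinsufficient and 19639 FPKM in deficient cells, 3.14% and 3.29% of the FPKM of all genes. These are RNA values and do not measure class II protein at the surface. The paper reported higher surface MHC class II on myosin IIa-deficient follicular B cells.

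**Figure D1:**
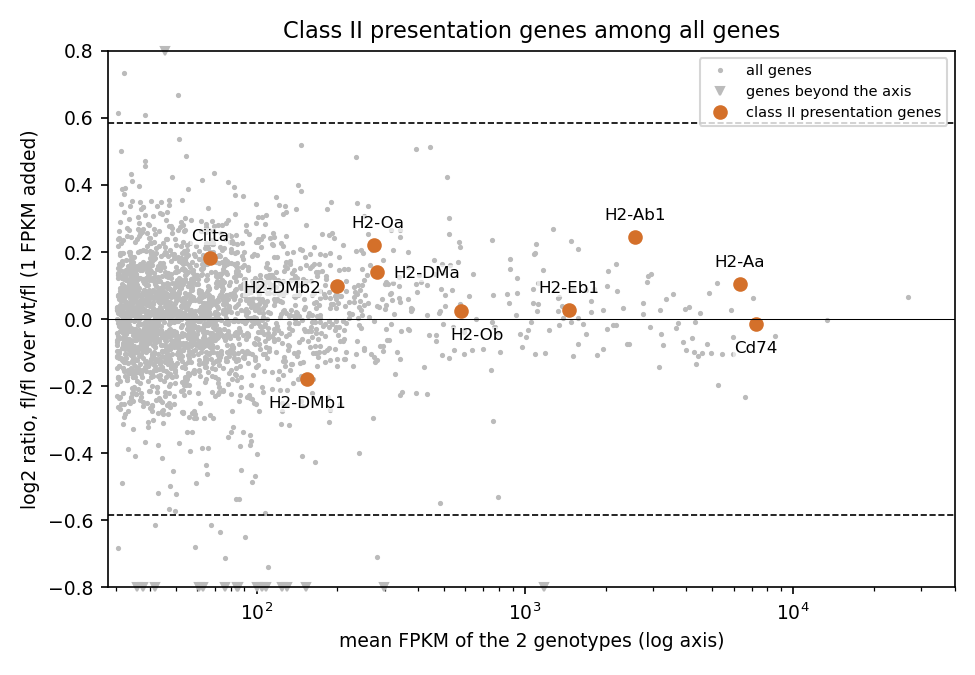
Log2 ratio of fl/fl over wt/fl FPKM (vertical axis, 1 FPKM added) against the mean FPKM of the genotypes (horizontal log axis) for the 2577 genes whose mean reached 30 FPKM. Each point is a gene, the 10 class II presentation genes are orange, dashed lines mark 1.5-fold, and 17 genes beyond the axis are drawn as triangles at its edge. The class II genes lie between -0.18 and 0.24, inside the dashed lines.

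The classical chains form the peptide-binding groove. H2-Aa, the alpha chain of I-A, was at 6083 FPKM in haploinsufficient and 6545 FPKM in deficient cells (log2 ratio 0.11), the 7th highest mean of all gene names. H2-Ab1, its beta chain, was at 2360 and 2796 FPKM (log2 ratio 0.24), 18.5% higher in fl/fl cells. That was the largest ratio among the 10 genes, and it stood at percentile 91.5 of all genes and percentile 94.0 of genes with at least 100 FPKM. H2-Eb1, the beta chain of I-E, was at 1443 and 1471 FPKM (log2 ratio 0.03), nearly level. In C57BL/6 mice the alpha chain gene of I-E is not functional, and its pseudogene H2-Ea-ps was at 1.13 and 0.866 FPKM. The related beta chain gene H2-Eb2 was at 34.5 and 36.9 FPKM. The 3 classical chains together gave 9886 FPKM in haploinsufficient and 10812 FPKM in deficient cells. Because H2-Ab1 differed more than H2-Aa, the ratio of H2-Aa to H2-Ab1 was 2.58 in haploinsufficient and 2.34 in myosin IIa-deficient cells.

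Cd74, the invariant chain, was the most abundant of the 10 genes and the 4th highest of all, at 7307 FPKM in haploinsufficient and 7237 FPKM in deficient cells (log2 ratio -0.01). It was listed in 2 entries, each standing for transcripts with the same coding sequence. The major entry was at 6615 and 6549 FPKM and the minor entry at 692 and 688 FPKM, so that the minor entry made up 9.47% and 9.51% of the gene. Both the level of Cd74 and the split between its entries were thus nearly the same in the 2 genotypes. The ratio of Cd74 to H2-Aa was 1.20 and 1.11.

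**Figure D2:**
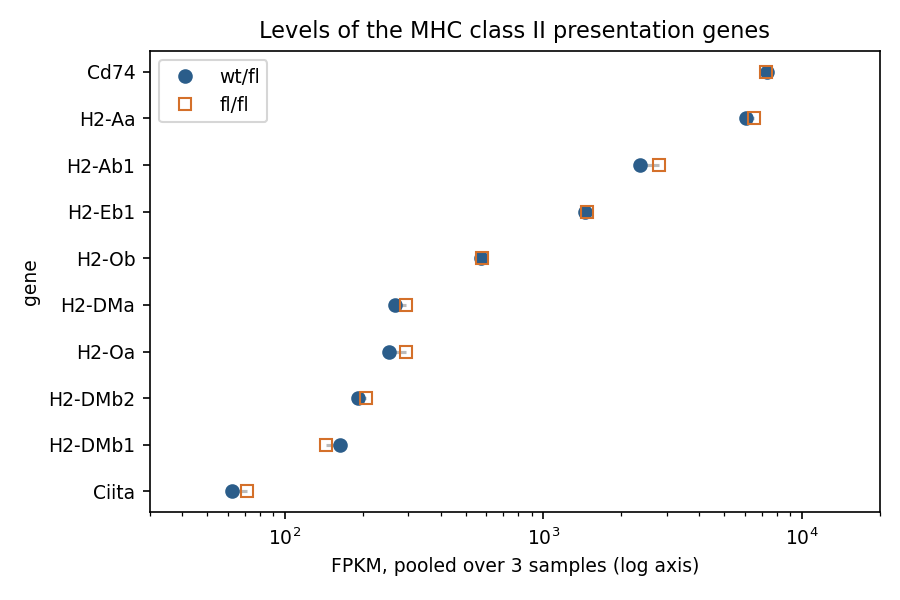
FPKM of the 10 class II presentation genes (horizontal log axis), with 1 point for each genotype, pooled over 3 samples (filled circles wt/fl, open squares fl/fl) and no error bars because no values per sample were used. Cd74 and H2-Aa are highest and Ciita lowest in both genotypes, and the pairs of points lie close together.

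H2-M is a heterodimer of an alpha chain, H2-DMa, and a beta chain from H2-DMb1 or H2-DMb2. H2-DMa was at 266 FPKM in haploinsufficient and 294 FPKM in deficient cells (log2 ratio 0.14). H2-DMb1 was at 163 and 144 FPKM (log2 ratio -0.18), 11.7% lower in fl/fl cells and the lowest ratio of the 10 genes. That ratio stood at percentile 15.2 of all genes and percentile 7.44 of genes with at least 100 FPKM. H2-DMb2 was at 192 and 206 FPKM (log2 ratio 0.10). The beta chain genes therefore differed in opposite directions, and the ratio of H2-DMb2 to H2-DMb1 was 1.17 in haploinsufficient and 1.42 in myosin IIa-deficient cells. Their separate values are uncertain, since the genes are near-identical in part: 27.2% of the 50-base runs of the longest coding H2-DMb1 transcript were also found in H2-DMb2 transcripts. No such run was shared with another gene by the longest coding transcript of the 8 members other than this pair. Summed, H2-DMb1 and H2-DMb2 were at 356 and 350 FPKM (log2 ratio -0.02), and the ratio of H2-DMa to that sum was 0.749 and 0.839.

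H2-O, the partner that restrains H2-M, is made of H2-Oa and H2-Ob and is typical of B cells. H2-Oa was at 252 FPKM in haploinsufficient and 295 FPKM in deficient cells (log2 ratio 0.22), 16.7% higher and at percentile 89.9 of all genes. H2-Ob was at 571 and 581 FPKM (log2 ratio 0.02). H2-Ob thus exceeded H2-Oa in both genotypes, by a ratio of 2.26 and 1.97. The sum of the H2-O chains over the sum of the H2-M chains was 1.32 in haploinsufficient and 1.36 in myosin IIa-deficient cells.

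Ciita, the transactivator of the group, was the least abundant member, at 62.6 FPKM in haploinsufficient and 71.1 FPKM in deficient cells (log2 ratio 0.18). It was still above 89.7% of the genes whose mean reached 1 FPKM. Its 3 entries did not all differ in the same direction. The major entry was at 54.6 and 63.7 FPKM, the second at 4.18 and 4.91 FPKM, and the third at 3.81 and 2.54 FPKM (log2 ratio -0.44). The third entry was 6.09% of the gene in wt/fl and 3.57% in fl/fl cells. The entries could not be assigned to the promoters from which Ciita is transcribed, because the table names them by identifier only.

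From highest to lowest, the order in wt/fl cells was Cd74, H2-Aa, H2-Ab1, H2-Eb1, H2-Ob, H2-DMa, H2-Oa, H2-DMb2, H2-DMb1 and Ciita. The order in fl/fl cells was the same except that H2-DMa and H2-Oa, at 294 and 295 FPKM, changed places. Without values per sample it cannot be said which neighbours in this order differ beyond their spread.

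Of these genes, 8 lie together in the class II region of chromosome 17, at 34220788 to 34453619 on mm9, a span of 233 kb that held 13 genes of the table. H2-Oa is at one end (34220788 to 34232254), followed by H2-DMa (34259777 to 34276046), H2-DMb2 (34282361 to 34288040) and H2-DMb1 (34290136 to 34297174). H2-Ob (34375850 to 34382853), H2-Ab1 (34400172 to 34406363), H2-Aa (34419696 to 34424716) and H2-Eb1 (34442812 to 34453619) are at the other. These are the spans of whole genes, with exons, introns and UTRs. The 5 genes between or beside them had log2 ratios from -0.06 for Tap2, a subunit of the peptide transporter, to 0.26 for Psmb8, a subunit of the immunoproteasome, with a median of 0.02. Psmb8, at 173 and 207 FPKM, thus differed by more than any class II gene of the region. Psmb8 and Tap2 lie next to each other, and both ratios were between the 5th and 95th percentiles of all genes, -0.34 and 0.31. Without values per sample, whether neighbouring genes differ together was not tested. Cd74, on chromosome 18 (60963503 to 60972306), and Ciita, on chromosome 16 (10480165 to 10527657), lie outside the region.

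**Figure D3:**
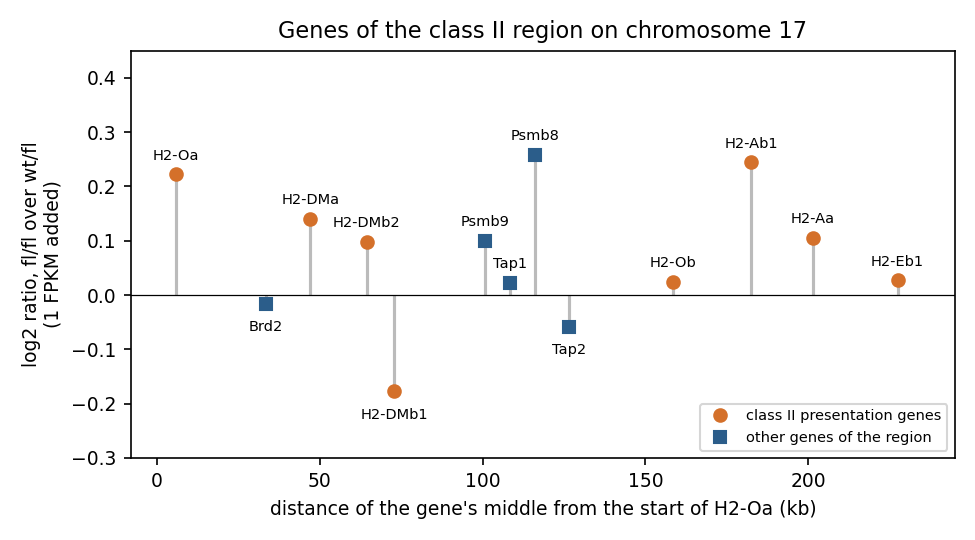
Log2 ratio of fl/fl over wt/fl FPKM (vertical axis, 1 FPKM added) of the 13 genes of the class II region against the distance of each gene's middle from the start of H2-Oa (horizontal axis, kb). Orange circles are class II presentation genes and blue squares the 5 other genes. Ratios of both signs stand side by side, from -0.18 for H2-DMb1 to 0.26 for Psmb8.

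Genes that act on the same pathway were taken from lists chosen by function. Over all genes 2.32% differed by 1.5-fold, so a short list without such a gene is close to that share. Of 15 listed regulators of class II transcription, 14 reached a mean of 1 FPKM, none differed by 1.5-fold, and 6 were higher and 8 lower in fl/fl cells, with a median log2 ratio of -0.03. The most abundant were Pax5, the B cell identity factor (357 FPKM in haploinsufficient and 373 FPKM in deficient cells) and Irf8, an interferon regulatory factor of B and myeloid cells (106 and 109 FPKM). The subunits of the RFX complex, which binds the X box, were named after their values were seen. Rfx5 was at 30.6 and 34.7 FPKM, Rfxap at 8.36 and 8.90 FPKM, and Rfxank at 5.87 and 5.60 FPKM. Prdm1, which silences Ciita in plasma cells, had a mean under 1 FPKM.

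Of 9 genes for proteolysis in endosomes and cutting of the invariant chain, none differed by 1.5-fold, where 2.32% of all genes did. In fl/fl cells 4 were higher and 5 lower, and the median log2 ratio was -0.02. Ctss, the protease for the late steps of invariant chain cutting, was at 530 FPKM in haploinsufficient and 597 FPKM in deficient cells (log2 ratio 0.17). Ifi30, a thiol reductase of endosomes, was at 313 and 300 FPKM, and Ctsh, a cathepsin, at 189 and 195 FPKM. Of 5 genes for turnover of class II at the surface, 3 reached a mean of 1 FPKM and none differed by 1.5-fold. Cd83, which protects class II from ubiquitination, was at 159 and 134 FPKM (log2 ratio -0.24). March1, the ubiquitin ligase that removes class II from the surface, was at 51.9 and 49.4 FPKM.

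Of 4 genes of proteins that bind or work with Cd74, Cxcr4 alone differed by 1.5-fold. Cxcr4, the chemokine receptor for Cxcl12, was at 113 FPKM in haploinsufficient and 39.7 FPKM in deficient cells (log2 ratio -1.49). Mif, the ligand of Cd74, was at 297 and 281 FPKM (log2 ratio -0.08), and Cd82, a tetraspanin, at 19.8 and 21.3 FPKM.

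**Figure D4:**
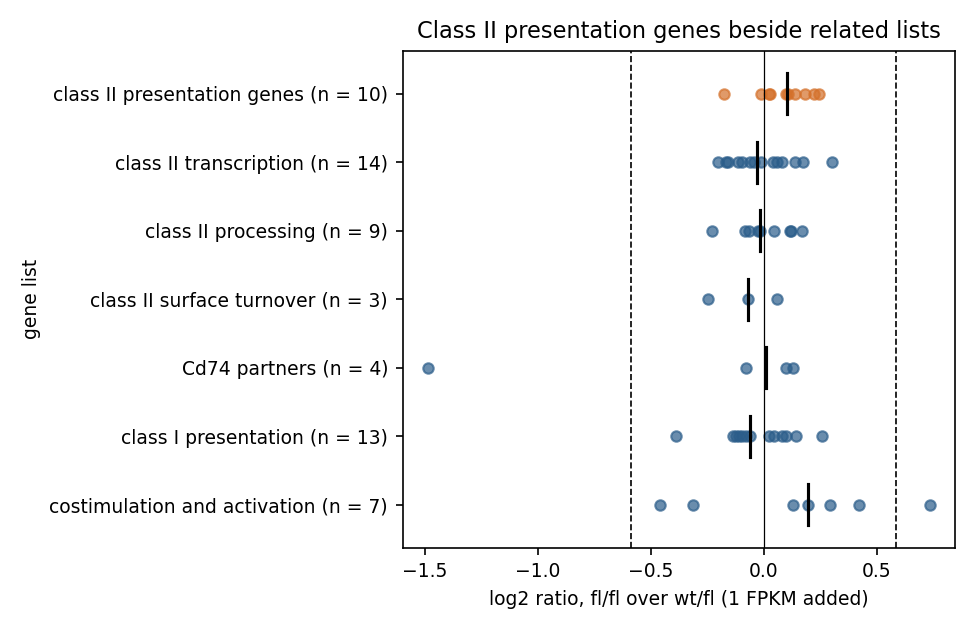
Log2 ratio of fl/fl over wt/fl FPKM (horizontal axis, 1 FPKM added) of each gene whose mean reached 1 FPKM, for the class II genes and 6 functional lists (cell type markers are not plotted), with vertical bars at the median and dashed lines at 1.5-fold. The class II presentation genes are orange with a median of 0.10, and 2 genes of the 6 lists pass the dashed lines, Cxcr4 at -1.49 and Slamf1 at 0.73.

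Other cells that carry class II were sought by their markers, because a few dendritic cells or macrophages in the sort would add to these levels. In bulk samples, fewer cells of a type and less RNA per cell cannot be told apart. The 8 B cell markers were all above 1 FPKM, with a sum of 4840 FPKM in haploinsufficient and 5110 FPKM in deficient cells, and Cd79b and Cd79a were the highest. Of the 9 dendritic cell markers, 7 had a mean under 1 FPKM. Ccr7, which B cells also express, was at 146 and 118 FPKM, and without it the other 8 summed to 4.99 and 3.30 FPKM. Of the 10 macrophage and monocyte markers, 4 had a mean under 1 FPKM, and the sum was 89.7 and 60.1 FPKM, of which Lyz2 gave 72.6 and 44.9 FPKM. Cd68 was at 7.41 and 6.10 FPKM. Apart from Ccr7, Lyz2 and Cd68, each dendritic cell, macrophage and monocyte marker was at most 2.39 FPKM in either genotype. FPKM of a marker gene does not give a share of cells. Neutrophil markers had the lowest median of the marker lists, a log2 ratio of -2.52. All 6 that reached a mean of 1 FPKM were more than 1.5-fold lower in fl/fl cells, and the 8 in use summed to 364 and 64.7 FPKM, with S100a9 at 175 and 34.5 FPKM. The 8 T cell markers summed to 25.5 and 23.6 FPKM. Of the 6 plasma cell markers, 4 reached a mean of 1 FPKM, and all 4 were lower in fl/fl cells, with a median log2 ratio of -0.36. Jchain, at 5.40 and 0.617 FPKM, and Sdc1, at 2.30 and 1.13 FPKM, were past 1.5-fold. The sum of 118 and 107 FPKM came mostly from Irf4 and Xbp1, and Tnfrsf17 was listed at 0 in both genotypes. The part of these other cells in the class II values was not tested.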

How the data were processed

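Per the labels, RNA was isolated with TriZol and RNEasy columns and amplified with the Ovation RNA-Seq system V2 before TruSeq Nano libraries were made. The submitters' processing notes name Bowtie, TopHat and Cufflinks, without versions, and mm10. Positions in the table match mm9 and are given so, 1-based. The authors deposited 1 table in the layout of Cuffdiff, with FPKM for every set of transcripts with an identical coding sequence, pooled over the 3 samples of a genotype, and with columns of their own comparison (fold changes, test statistics, p-values and calls), which were not used. Amplification can shift the levels of single transcripts, and FPKM is relative to the total of the library. Whole reads could not be recovered, since 32.1% and 38.4% of the low values were whole multiples within 0.1, where an even spread gives 20%, so depth is unknown.

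FPKM was summed over the entries of a gene, and genes were kept at a mean of at least 1 FPKM. Differences are log2((fl/fl + 1)/(wt/fl + 1)), and 1.5-fold was the limit of size. The design had set out that pooled values get a description and no test. Promoter windows were RefSeq GRCm38.p6, and transcripts for the 50-base runs were GENCODE M21. Python 3.11.15, numpy 2.4.6, pandas 2.3.3, Biopython 1.88 and matplotlib 3.10.9 were used. The code for the log2 ratio and the 1.5-fold limit was checked on simulated 2-fold changes with small noise. That check did not cover ratios as small as those of the members, the spread between samples or the sequence work. The members and the 13 lists were chosen with earlier results of these data known. Named were the 10 members, Myh9, the 3 most abundant genes of each list and any gene of a pathway list or of the class II region past 1.5-fold, and other names were chosen after their values were seen. Ly6g was not analysed here, and some genes that the rule names are not reported here. Alternatives were other pseudocounts, scalings, filters and fold limits, each entry on its own, and the members without H2-DMb1 and H2-DMb2.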

Additional observations from a re-analysis of the deposited data

How the results depend on the processing

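No paired analysis was possible because each genotype has 1 pooled value, and for the same reason no replicate could be left out. None of the 10 genes passed the limit at a log2 difference of 0.32, at 1.5-fold or at 2-fold, and the median log2 ratio of the members stayed between 0.095 and 0.12 under all alternatives. Under the other pseudocounts and scalings, all 40 values of single members stayed within 0.05 of the value given above, with 0 changes of sign. Small shifts follow from these settings, since the members are far above the pseudocounts and a scaling moves all genes nearly alike. They say nothing about the spread between samples. Filters and fold limits cannot move a single gene. The lowest ratio was -0.44 with each entry on its own, which is the third entry of Ciita, and -0.014 without H2-DMb1 and H2-DMb2, since the lowest gene is then left out. The share of all genes past 1.5-fold, 2.32% as reported, was 4.19% with a pseudocount of 0.1 FPKM, 4.55% with none, 1.20% at a mean of at least 5 FPKM and 1.62% at 100 FPKM. It was 10.1% past a log2 difference of 0.32 and 0.496% past 2-fold. Unknown depth and missing values per sample limit every difference.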

Other observations

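The class I pathway, which loads peptides of the cytosol for CD8 T cells, was described in the same way. None of its 13 genes differed by 1.5-fold, where 2.32% of all genes did. In fl/fl cells 6 were higher and 7 lower, and the median log2 ratio was -0.06. B2m, the light chain of class I, was at 4531 FPKM in haploinsufficient and 4128 FPKM in deficient cells, H2-K1 at 1574 and 1459 FPKM, and H2-D1 at 832 and 778 FPKM. The lowest ratio was that of Nlrc5, the class I counterpart of Ciita, at -0.39, named after its value was seen.

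Of 8 genes for costimulation and activation, 7 reached a mean of 1 FPKM, and their median log2 ratio was 0.20. Of these 7, 5 were higher and 2 lower in fl/fl cells, against 50.5% higher over all genes. Slamf1, a receptor of the SLAM family, was at 23.8 and 40.3 FPKM (log2 ratio 0.73) and was the 1 gene of the list past 1.5-fold. Fcer2a, the gene of CD23, was at 439 and 588 FPKM (log2 ratio 0.42), and CD23 was a marker of the sort. Icosl, the ligand of Icos, was at 161 and 184 FPKM, and Cd40, the receptor for T cell help, at 69.8 and 85.9 FPKM. The 2 lower genes were Cd86, a ligand of Cd28, at 16.0 and 11.3 FPKM (log2 ratio -0.46), and Cd69, at 35.4 and 28.3 FPKM (log2 ratio -0.31). Both were named after their values were seen.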
